A study of Mus musculus with 220 samples.

Results

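SEA/GnJ is a classical inbred mouse strain, and the 3 female mice described here were F1 offspring of SEA/GnJ mothers, out of 220 mice whose livers were profiled. The strain was singled out with earlier results of these data known, its mice were then taken by their strain label, and they were set against 62 mice of the 28 other classical inbred strains, which are the maternal strains outside the BXD, AXB, BXA, CXB and BXH recombinant panels. The fathers of every mouse in the series were C57BL/6J males with human transgenes for APOE-Leiden and CETP, so all groups share both transgenes and every mouse carried a C57BL/6J allele of each autosomal gene beside the allele of its mother's strain. The mice ate chow for 8 weeks and then a Western diet high in fat and cholesterol for 16 weeks, and the left liver lobe was taken at 24 weeks of age. The SEA/GnJ mice are called mouse 1, mouse 2 and mouse 3. Of the 28 other strains, 8 had 3 mice, 18 had 2 and 2 had 1 (C57L/J and PL/J). C57BL/6J, with 2 mice, and BALB/cJ, with 3, are among the 28 and were also compared with SEA/GnJ on their own. Nothing in the labels says whether mice of a strain were littermates, so the tests measure the spread between these mice.

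SEA/GnJ is known for its short ear mutation, which disrupts Bmp5, and for its dilute coat, caused by an allele of Myo5a. Bmp5 encodes a secreted bone morphogenetic protein. In the liver such ligands come mostly from non-parenchymal cells and act through receptor-activated SMAD proteins on targets that include the Id genes and the iron hormone hepcidin. In an F1 animal a recessive mutation of the mother's strain is covered by the paternal allele, and these mice were heterozygous at both loci.

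The array values are log2 RMA values, so that a difference of 1 is a doubling of signal. Each array had a similar median, between 3.47 and 3.50 for the SEA/GnJ mice and between 3.43 and 3.56 over all mice. The summed linear signal of 12 hepatocyte markers was 63600, 65000 and 64700 in the SEA/GnJ mice and 61800 to 68400 in the other strain means. Over 10474 genes, with each gene centred on the mean of the classical strains, mouse 1 and mouse 2 correlated with each other at r = 0.670. Mouse 3 correlated with them at 0.460 and 0.494, about as closely as with the BALB/cJ mouse most like it, at 0.463. These correlations are across genes, which are not independent. Mouse 3 stood apart from mouse 1 and mouse 2. In the sample titles mouse 1 and mouse 2 carry consecutive numbers and mouse 3 a later one. What these numbers stand for is not given, and their part in the differences between the mice was not tested.

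Between SEA/GnJ and the mean of the 28 other strain means, 579 of 17097 genes were called higher (3.39% of genes tested) and 459 lower (2.68%), at an adjusted p under 0.05 by limma. The sizes were modest. The median size among the called genes was 0.41 on the log2 scale, 70 genes rose by more than 1, and 11 fell by more than 1. Over all genes the median difference was -0.00. With a mouse left out, 230 genes (without mouse 1), 296 (without mouse 2) and 328 (without mouse 3) were called higher, and 181, 286 and 239 were called lower.

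That test asks whether SEA/GnJ differs from the average strain, given how much mice of 1 strain differ. A second test asked whether SEA/GnJ lies outside the spread of the strain means themselves, with each strain as 1 value. By that test (limma on 29 strain means) 0 genes were called higher (0%) and 0 lower (0%), while 507 genes had an unadjusted p under 0.05. With strain means weighted by their number of mice, it called 2 genes higher (Kif20b and Ttk) and 4 lower (Copb2, Pip4k2b, Smarcal1 and Itpk1). With the means of all other 95 strains in place of the 28, it called Myom3, Cap2 and Mrps25 higher and Copb2, Pip4k2b, Smarcal1 and Nat8f2 lower. Without mouse 1 it called Kif20b, Ttk and Copb2. These genes were named after their values were seen.

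A single probe set passed the second test when all 45037 probe sets were counted. The annotation used here gives it no gene symbol. Its level was 6.59, 7.06 and 5.20 in the SEA/GnJ mice, against other strain means from 2.79 to 3.96 with a median of 3.02. Every SEA/GnJ mouse lay above every mouse of the other classical strains, and the difference was 3.16 ± 0.32 (SE; adjusted p = 2.8e-06). It too was singled out after its value was seen.

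For 58 genes (0.339%) all 3 SEA/GnJ mice lay above the range of the 28 other strain means, and for 58 genes (0.339%) all 3 lay below it. Of these, 47 were also called higher and 36 called lower against the mean of the strains. Lying outside the range already sets a gene apart from that mean, so these calls are no separate evidence. Against the spread of strain means 0 genes were called. The 12 largest rises and the 12 largest falls among these genes follow.

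**Figure D1:**
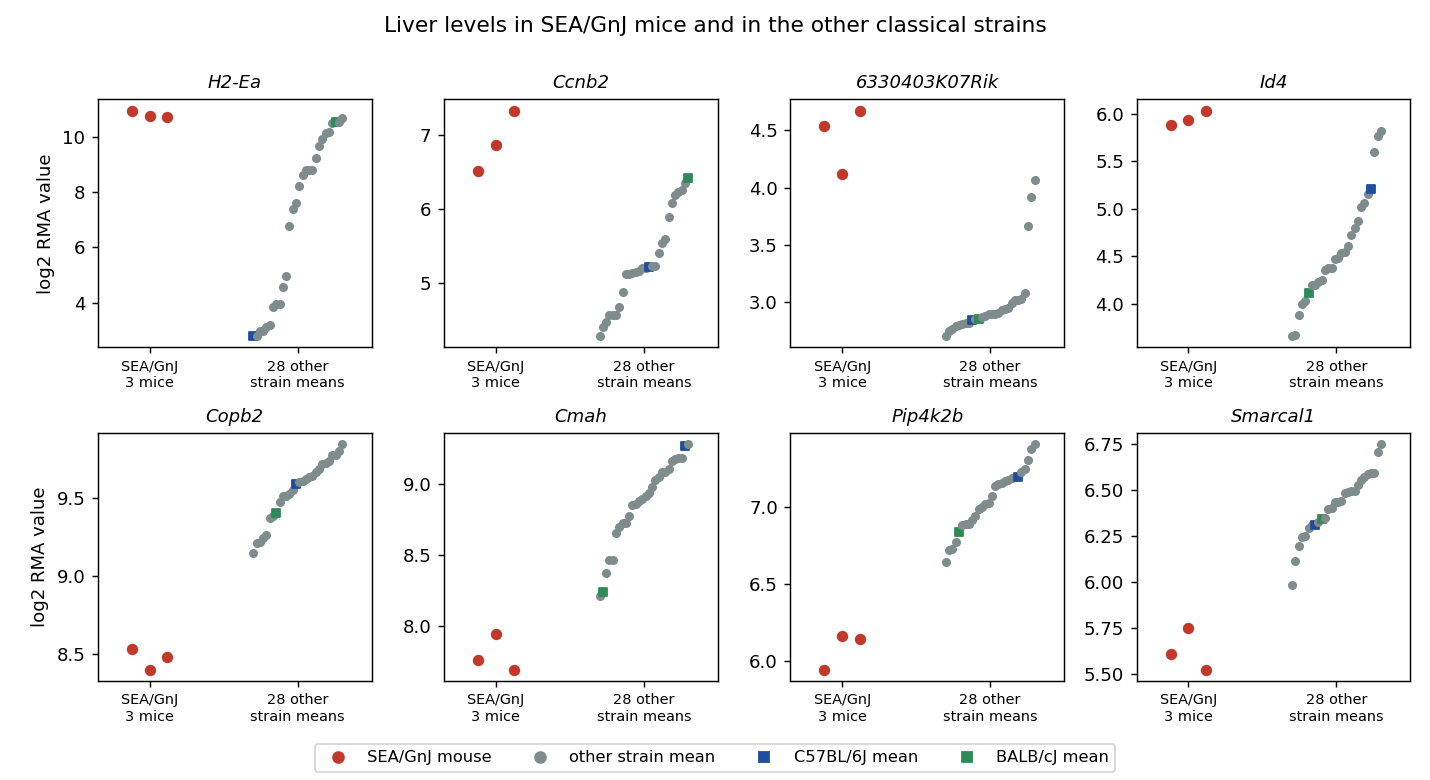
Vertical axes, array signal (log2 RMA) of 8 genes in the 3 SEA/GnJ mice (red, left) and in the means of the 28 other classical strains (grey, right, ordered by level), with C57BL/6J in blue and BALB/cJ in green. For each gene the SEA/GnJ mice lie outside the strain means, above them for H2-Ea, Ccnb2, 6330403K07Rik and Id4 and below them for Copb2, Cmah, Pip4k2b and Smarcal1.

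The largest rise was in H2-Ea, which encodes the alpha chain of the I-E class II molecule that presents peptides to T cells. The C57BL/6J haplotype is known not to make it. Its level was 10.95, 10.74 and 10.70 in the SEA/GnJ mice, against a lowest, median and highest of 2.80 (C57BL/6J), 7.92 and 10.68 (C57BLKS/J) among the other strain means. The other strains formed a low group of 11, up to 4.98, and a high group of 17, from 6.76, so that SEA/GnJ sat at the top of the high group and the difference of 3.81 ± 0.37 (SE; adjusted p = 1.7e-15) is set against both. A weaker probe set of H2-Ea read 9.08, 8.79 and 8.94 in SEA/GnJ, inside the range of the others (3.68 to 9.59). The remaining probe set was near background, with a difference of -0.01. H2-Ea was the sole gene called among 12 of the class II list, against 3.39% of all genes called higher. The median difference of the list was 0.16, and the partner chain gene H2-Eb1 had a difference of 0.45 ± 0.16 (SE; adjusted p = 0.10).

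The next rise belonged to a mitotic gene. Ccnb2, the cyclin B2 that drives entry into mitosis, read 6.51, 6.86 and 7.33 in SEA/GnJ, against 4.28 (LP/J), 5.19 and 6.42 (BALB/cJ) for the lowest, median and highest other strain mean. It rose by 1.62 ± 0.36 (SE; adjusted p = 0.0016), with mouse 3 highest, and was not called without mouse 3. Mad2l1, a spindle checkpoint protein, rose by 0.84 ± 0.21 (SE) with mouse 3 again highest (7.14, 7.14 and 7.47, against a highest strain mean of 6.92), and it was not called without mouse 3, nor against the mean of all 95 other strains (0.63, adjusted p = 0.069).

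Id4, an inhibitor of DNA binding and a member of the gene family that bone morphogenetic proteins induce, was even across the SEA/GnJ mice. Its level was 5.88, 5.93 and 6.03, against 3.66 (C3H/HeJ), 4.48 and 5.82 (SM/J) in the other strains. The rise was 1.37 ± 0.20 (SE; adjusted p = 2.7e-07), and both of its other probe sets were called in the same direction (0.67 and 1.14). 6330403K07Rik, a RIKEN transcript on chromosome 11, read 4.54, 4.12 and 4.67 in SEA/GnJ. In 25 of the other strains its mean was at most 3.08, and in the remaining 3 it lay between 3.67 and 4.06 (C57BLKS/J). Its rise was 1.45 ± 0.12 (SE; adjusted p = 2.5e-19), against strains that for the most part lay under the median level of all probe sets, 3.46.

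Adat2, a subunit of the tRNA adenosine deaminase, had the tightest values among the rises. It read 6.42, 6.37 and 6.32 in SEA/GnJ, against 4.32 (NOD/ShiLtJ), 4.92 and 6.23 (RIIIS/J), and every SEA/GnJ mouse exceeded every mouse of the other strains. It rose by 1.31 ± 0.14 (SE; adjusted p = 2.5e-12). Sparcl1, a secreted matrix-associated glycoprotein, rose by 1.40 ± 0.23 (SE) and Dkk3, a secreted protein of the Dickkopf family, by 1.33 ± 0.21 (SE). For both genes BALB/cJ was the next highest strain, at 8.50 and 5.63. The rest of the 12 were Zc2hc1a (1.02), the formin Fmn2 (0.98), the actin-binding profilin Pfn2 (0.98) and the membrane magnesium transporter Mmgt2 (0.90), with standard errors from 0.13 to 0.21.

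The falls were smaller. Copb2, a subunit of the COPI coat of Golgi vesicles, had the largest: it read 8.53, 8.40 and 8.48 in SEA/GnJ, against 9.15 (SM/J), 9.60 and 9.85 (C57BLKS/J). All 3 mice lay below every mouse of the other strains, and the fall was -1.08 ± 0.11 (SE; adjusted p = 7.6e-15). Against the spread of strain means Copb2 came closest of all genes to the threshold (adjusted p = 0.086). Its other probe set had a difference of only -0.12 ± 0.06 (SE) and was not called.

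Cmah makes the sialic acid N-glycolylneuraminic acid. It read 7.76, 7.94 and 7.69 in SEA/GnJ, against 8.21 (A/J), 8.90 and 9.29 (SWR/J), a fall of -1.07 ± 0.12 (SE; adjusted p = 1.7e-12). All 3 of its other probe sets were lower too, 2 of them called. Pip4k2b, a phosphatidylinositol phosphate kinase measured by 1 probe set, read 5.95, 6.17 and 6.15, against 6.65 (PL/J), 7.05 and 7.41 (NOD/ShiLtJ), and fell by 0.96 on the log2 scale. Smarcal1, a helicase that remodels stalled replication forks, read 5.60, 5.75 and 5.52, against 5.98 (KK/HlJ), 6.44 and 6.75 (MA/MyJ), and fell by 0.79. Its other probe sets, both dimmer, had differences of 0.02 and -0.17 and were not called.

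For some of the falls the direction depended on the probe set. Pdxdc1, which encodes a protein with a pyridoxal-dependent decarboxylase domain, read 7.31, 7.44 and 7.45 in SEA/GnJ on its brightest probe set, against 7.56 (BALB/cJ), 8.55 and 8.81 (C57BL/6J), an average of 7.40 in SEA/GnJ and 8.40 over the other strains (adjusted p = 1.6e-13). Another probe set of the same gene was 3.42 ± 0.38 (SE) higher in SEA/GnJ. Nat8f2, of the N-acetyltransferase 8 family, fell by 0.80 and by 0.77 on a pair of probe sets and rose by 0.62 on another, all called. For Fam168a (-0.80) none of the 3 other probe sets was lower. The remaining falls were those of the kinase anchor protein Akap12 (-0.87, not called without mouse 3), the centrosomal protein Sdccag8 (-0.78), the nuclear NAD-synthesis enzyme Nmnat1 (-0.67), the collagen lysyl hydroxylase Plod1 (-0.54) and the methionine salvage enzyme Adi1 (-0.53). The other probe sets of Sdccag8 (-0.17 and -0.03) and Plod1 (0.02) were not called. Of the 12 falls, 8 genes had another probe set, and in 3 of the 8 another probe set was called in the same direction. Among those 3, Pdxdc1 and Nat8f2 also had one called in the opposite direction. Of the 12 rises, 6 had another probe set, and in all 6 another one was called in the same direction. Every other probe set of the gene went in the same direction for 4 of the 6 rises and 3 of the 8 falls. The cause of disagreement between probe sets of a gene was not tested.

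**Figure D2:**
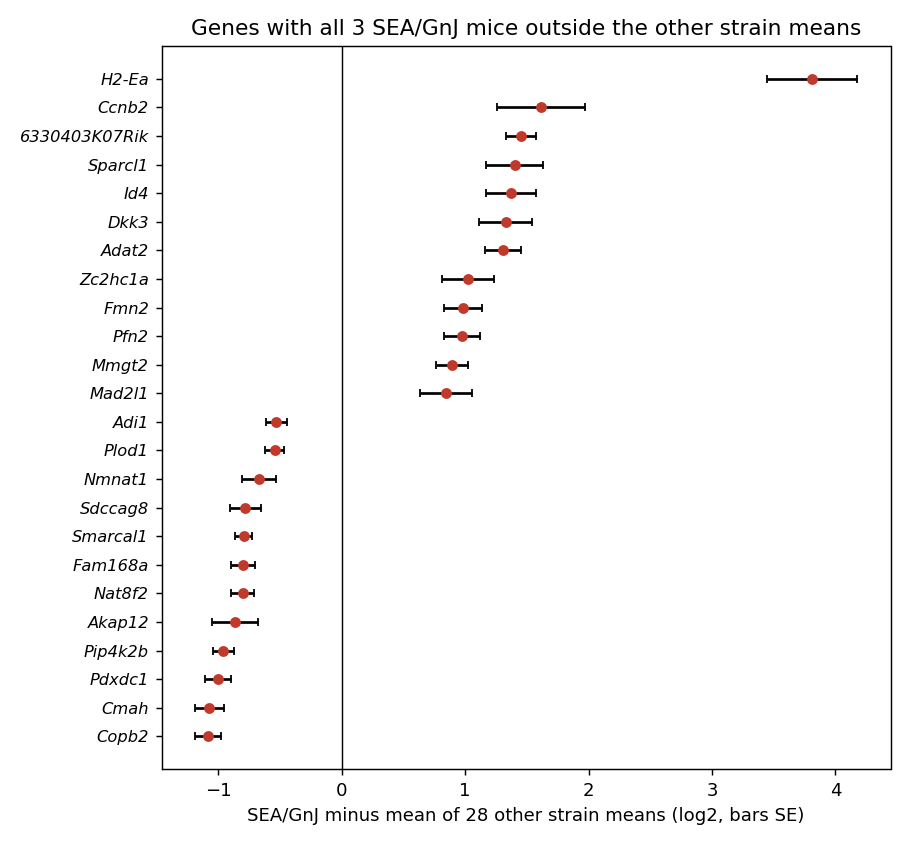
Difference between SEA/GnJ and the mean of the 28 other classical strain means (horizontal axis, log2; bars, limma standard error) for the 12 largest rises and 12 largest falls with all 3 SEA/GnJ mice outside the other strain means. H2-Ea, at 3.81, stands far from the other rises, which run from 0.84 to 1.62, and the falls run from -1.08 to -0.53.

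At the loci for which SEA/GnJ is known, Bmp5 was called lower and Myo5a was not called. Bmp5 read 5.73, 5.54 and 5.97 in the SEA/GnJ mice, against 5.74 (RIIIS/J), 6.35 and 6.94 (C57BL/6J) for the lowest, median and highest other strain mean. The difference was -0.63 ± 0.12 (SE; adjusted p = 0.00012), SEA/GnJ was second lowest of the 29 strains, and the call held with each mouse left out. The other Bmp5 probe sets, both dimmer, were lower by -0.27 and -0.17 without being called. Myo5a, the myosin motor that carries pigment granules, read 5.39, 5.29 and 4.84, against 4.27 (SWR/J), 5.59 and 6.95 (A/J), a difference of -0.46 ± 0.17 (SE; adjusted p = 0.11). The pigment enzyme gene Tyrp1 was near background in every strain, at 3.04, 3.12 and 3.14 in SEA/GnJ and 2.78 to 3.27 in the others.

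Among the 40 measured genes nearest to Bmp5 on chromosome 9, 20 on each side by RefSeq order (GRCm38.p6), 2 were called higher and 1 lower, against 3.39% and 2.68% of all genes, so the count is near the background and is no result about the neighbours. The 3 were Tinag (1.32), Lysmd2 (0.56) and Fbxo9 (-0.18), named after their values were seen. Of the 30 measured genes of the bone morphogenetic protein and iron list, 2 were higher, Id4 and the iron regulator Hfe, and Bmp5 alone was lower. The median difference of the list was -0.02, close to that of all genes. Hfe rose by 0.25 ± 0.06 (SE) on its brighter probe set, while its dimmer probe set was called in the opposite direction (-0.53). The rise was not called without mouse 1 or mouse 3.

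The cell cycle list moved most. Of its 25 measured genes 13 were called higher and 0 lower, against 3.39% and 2.68% of all genes. Of the 25, 23 lay above the mean of the other strains, and the median difference was 0.58, against -0.00 for all genes. SEA/GnJ had the highest mean of the 29 strains for 11 of the 25, a description only, since the share over all genes was not counted. Ube2c, the ubiquitin-conjugating enzyme of the anaphase-promoting complex, read 5.89, 6.63 and 7.63, against 3.87 (FVB/NJ), 5.20 and 6.34 (C3H/HeJ), and rose by 1.48 ± 0.38 (SE; adjusted p = 0.0078). Birc5 (survivin), a member of the chromosomal passenger complex, read 5.95, 6.35 and 6.82, against 3.94 (PL/J), 4.95 and 6.29 (C3H/HeJ), and rose by 1.37. Cdc20, an activator of the anaphase-promoting complex, read 5.96, 6.60 and 7.28, against 4.37 (FVB/NJ), 5.26 and 6.39 (C3H/HeJ), and rose by 1.29.

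The other called members were Ccnb2, the mitotic kinase genes Cdk1 (1.18), Aurka (1.02), Bub1 (0.66) and Bub1b (0.58), the S and G2 phase cyclin Ccna2 (1.10), the tubulin-binding Stmn1 (0.92), the phosphatase Cdkn3 (0.90), and the DNA synthesis genes Tyms (0.44) and Pcna (0.28). The proliferation marker Mki67 had a difference of 0.99 (adjusted p = 0.067) and passed the test when mouse 1 was left out. Mouse 3 was the highest of the 3 SEA/GnJ mice for 19 of the 25 genes. The count of called members was 12 without mouse 1, 6 without mouse 2 and 2 without mouse 3. The mean of C3H/HeJ was the highest among the other strains for Ube2c, Birc5 and Cdc20, and that of BALB/cJ for Ccnb2. Against BALB/cJ 0 of the 25 were called. The summed linear signal of the list was 4400, 4490 and 4780 in the SEA/GnJ mice and 3050 to 4970 in the other strain means.

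**Figure D3:**
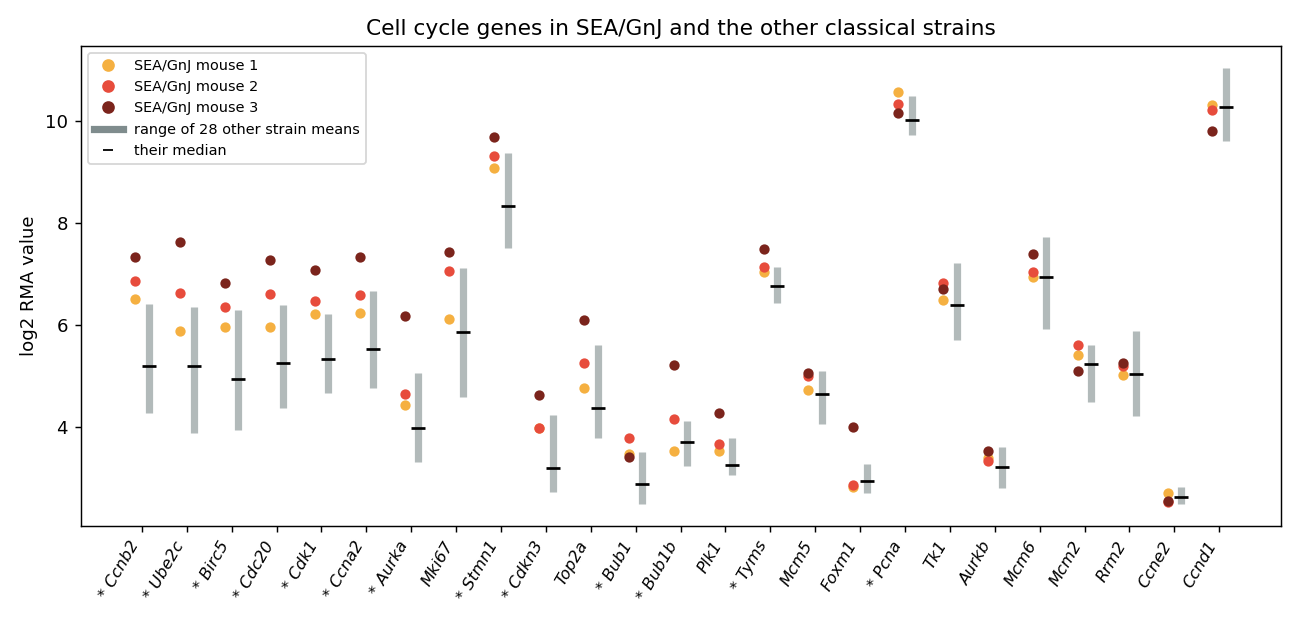
The 25 measured cell cycle genes along the horizontal axis and their array signal (log2 RMA) on the vertical axis, ordered by the size of the SEA/GnJ difference, with the 3 SEA/GnJ mice as points to the left of a grey bar that spans the 28 other strain means and a black tick at their median. Asterisks mark the 13 genes called higher. Mouse 3 (dark red) is the highest of the 3 for 19 genes.

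The promoters of the 4 cell cycle genes with the largest rise are shown because genes that peak in mitosis are known to share CCAAT boxes, bound by NF-Y, and the cell cycle homology element TTTGAA, bound by the DREAM and MuvB complexes. Each window runs from 200 bases before the RefSeq start to 30 bases after it, 230 bases, 5′ to 3′ on the gene's strand (GRCm38.p6), and capitals mark CCAAT or TTTGAA on either strand, where neighbouring matches can overlap. Ccnb2 is at chr9:70421525-70421754 (minus strand), Ube2c at chr2:164769729-164769958 (plus strand), Birc5 at chr11:117849037-117849266 (plus strand) and Cdc20 at chr4:118437314-118437543 (minus strand).
Ccnb2: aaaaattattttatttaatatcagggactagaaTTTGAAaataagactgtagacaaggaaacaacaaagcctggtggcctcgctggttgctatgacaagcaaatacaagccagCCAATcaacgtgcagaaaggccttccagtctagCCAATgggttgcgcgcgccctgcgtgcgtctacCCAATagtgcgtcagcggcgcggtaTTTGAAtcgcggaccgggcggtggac
Ube2c: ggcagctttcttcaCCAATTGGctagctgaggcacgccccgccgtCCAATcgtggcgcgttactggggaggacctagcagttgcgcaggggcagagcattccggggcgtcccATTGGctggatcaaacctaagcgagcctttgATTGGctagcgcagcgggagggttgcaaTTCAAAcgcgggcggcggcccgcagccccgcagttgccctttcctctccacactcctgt
Birc5: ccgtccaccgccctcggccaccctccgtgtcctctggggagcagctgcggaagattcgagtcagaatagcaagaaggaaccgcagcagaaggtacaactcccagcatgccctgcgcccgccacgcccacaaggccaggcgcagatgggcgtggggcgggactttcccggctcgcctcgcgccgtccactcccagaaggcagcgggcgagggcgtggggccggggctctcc
Cdc20: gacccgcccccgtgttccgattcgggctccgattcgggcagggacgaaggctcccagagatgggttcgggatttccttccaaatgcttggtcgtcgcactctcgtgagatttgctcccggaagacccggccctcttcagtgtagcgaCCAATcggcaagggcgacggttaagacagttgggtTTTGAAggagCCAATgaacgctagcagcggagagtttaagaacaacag
Ccnb2 holds 3 matches to CCAAT and 2 to TTTGAA, Ube2c 5 and 1, and Cdc20 2 and 1, while Birc5 holds neither in this window. RefSeq promoters matched 11 of the 13 called cell cycle genes. Of the 11, 9 held CCAAT and 5 held TTTGAA, and all 5 held both. Over all 32851 promoters of the same length, 31.7% held CCAAT, 13.8% held TTTGAA and 4.47% held both. The matches describe the reference sequence and not the SEA/GnJ alleles.

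Of the 12 measured markers of the bile duct epithelium 4 were called higher, against 3.39% of all genes. All 12 measured cholangiocyte markers lay above the mean of the other strains, with a median difference of 0.57. Those called were the tetraspanin Tspan8, the adhesion molecule Epcam, the annexin Anxa13 and the tight junction claudin Cldn7. Epcam read 8.19, 8.04 and 7.88 in SEA/GnJ, against 4.87 (NOD/ShiLtJ), 6.46 and 8.37 (C3H/HeJ), a rise of 1.48 ± 0.36 (SE; adjusted p = 0.0047). Tspan8 rose by 1.49 ± 0.46, Anxa13 by 1.36 ± 0.32 and Cldn7 by 1.25 ± 0.28 (SE). SEA/GnJ was not the highest strain for any of the 12. Without mouse 1 none of the 4 was called, and without mouse 2 or mouse 3 there were 3. The summed linear signal of the list was 6450, 6480 and 5580 in the SEA/GnJ mice and 3090 to 8770 in the other strain means, with a median of 5650. The brightest of the 12 were the keratins Krt18 and Krt8, with SEA/GnJ means of 11.38 and 11.26, against 8.69 for Tspan8. The sum mostly follows these keratins and says little about the other markers. The sum was lowest in mouse 3, the mouse with the highest cell cycle genes. The part of bile duct cells in the cell cycle values was not tested. In bulk liver a larger number of cells of a type and more RNA per cell cannot be told apart.

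The stellate cell and matrix list had 4 of 25 genes called higher and 1 lower, against 3.39% and 2.68% of all genes. The lower count is near that background. Its median difference was 0.32 over the list. The proteoglycan lumican (Lum) read 10.96, 10.53 and 10.53, against 8.52 (SWR/J), 9.77 and 10.88 (C3H/HeJ), a rise of 0.93 ± 0.24 (SE; adjusted p = 0.0079). The gelatinase Mmp2 rose by 0.90, the lysyl oxidase-like enzyme Loxl1 by 0.84 and the protease inhibitor Timp2 by 0.65, while the extracellular matrix protein gene Ecm1 had a difference of -0.56. The 4 rises numbered 0 without mouse 1 and 2 without mouse 2 or mouse 3, and Ecm1 was called only with mouse 1 and mouse 2 both in. The summed signal was 16900, 15000 and 15100 in SEA/GnJ and 8760 to 18000 in the other strain means.

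Endothelial markers pointed the other way. Of 18 measured, 17 lay below the mean of the other strains, with a median difference of -0.32. Against 2.68% of all genes, 2 of the 18 were called lower. They were the adhesion molecule Cdh5 (VE-cadherin), at 5.41, 5.18 and 5.53 in SEA/GnJ against 4.82 (BALB/cJ), 5.94 and 6.52 (SWR/J), and the sinusoidal gene Oit3, at 6.42, 5.71 and 5.98 against 5.27 (BALB/cJ), 6.59 and 7.65 (SWR/J). Cdh5 had a difference of -0.47 ± 0.13 (SE; adjusted p = 0.015) and Oit3 of -0.50 ± 0.16 (SE; adjusted p = 0.044). Both lay inside the range of the other strains. Without mouse 2 no gene of the list was called lower. Cdh5 was not called without mouse 1 either, nor Oit3 without mouse 3. The summed signal was 3310, 2360 and 2400 in SEA/GnJ and 2180 to 4870 in the other strain means, with a median of 3090. By this sum mouse 1 lay above that median, and mouse 2 and mouse 3 lay below it. Mouse 1 was the highest SEA/GnJ mouse for 16 of the 18 genes.

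All 11 measured neutrophil genes lay above the mean of the other strains (median difference 0.46), but the 3 mice were far apart. Of the 11, 2 were called higher, against 3.39% of all genes. The granule protein gene Ngp read 6.57, 5.05 and 3.42 in mouse 1, mouse 2 and mouse 3, against 2.73 (C3H/HeJ), 3.34 and 6.21 (C57L/J) in the other strains, and was not called (adjusted p = 0.0501). The cathelicidin Camp (5.71, 4.50 and 3.57) rose by 1.15 and the collagenase Mmp8 (4.07 ± 0.13, SD, n = 3) by 0.49. Mouse 1 was the highest SEA/GnJ mouse for 9 of the 11 genes and mouse 3 for none. Without mouse 1 or mouse 2 no neutrophil gene was called. The summed signal was 1050, 539 and 366 in the SEA/GnJ mice and 192 to 931 in the other strain means. The haemoglobin gene Hba-a1 was also highest in mouse 1 (11.70, 10.65 and 10.92), and the part of blood in these values was not tested. The erythroid list had 0 of 6 genes called and a median of -0.14.

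Few other immune cell markers were called. The T and NK cell list had 0 of 19 called (median -0.03), the B and plasma cell list 0 of 10 (median 0.14), and the macrophage and Kupffer cell list 1 of 26 (median 0.07). Over all genes 3.39% were called higher and 2.68% lower, so the count of 1 in 26 is near the background. The gene called in the macrophage and Kupffer cell list was the chemokine receptor Ccr2, which marks monocyte-derived cells. It read 6.65, 6.49 and 6.35, against 4.76 (FVB/NJ), 5.66 and 6.44 (AKR/J), and rose by 0.78 ± 0.17 (SE; adjusted p = 0.0011), with its 3 other probe sets all called higher. In the lipid-associated macrophage list the tetraspanin Cd9 rose by 0.55, which was not called without mouse 1, and none of the other 12 genes was called.

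**Figure D4:**
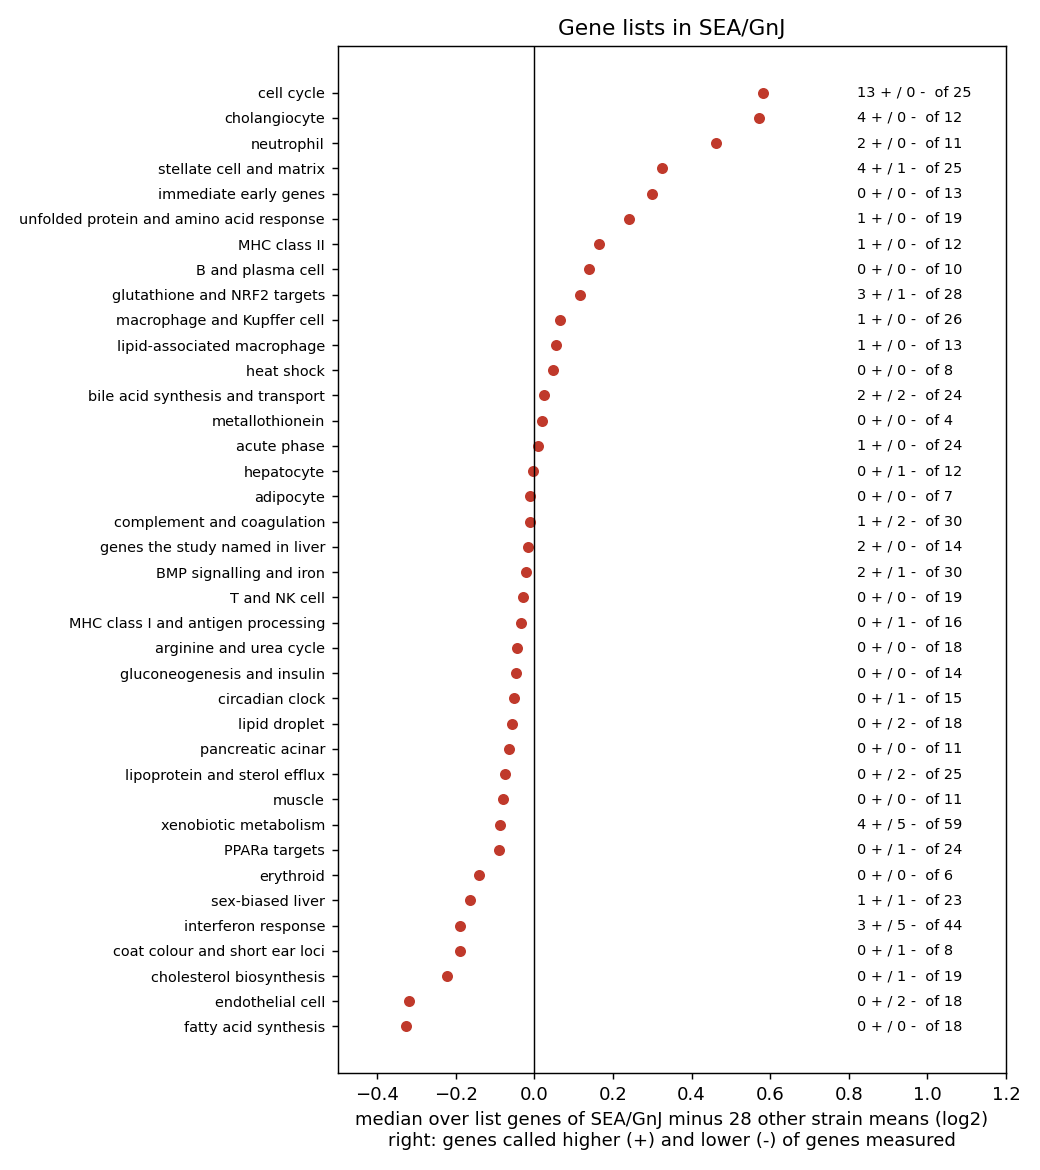
Median over the measured genes of each list of the difference between SEA/GnJ and the mean of the 28 other strain means (horizontal axis, log2), with the numbers of genes called higher (+) and lower (-) of those measured at the right. The cell cycle and cholangiocyte lists have the highest medians (0.58 and 0.57) and the fatty acid synthesis and endothelial lists the lowest (-0.33 and -0.32).

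Interferon-response genes went both ways. Of 44 measured, 3 were called higher and 5 lower, against 3.39% and 2.68% of all genes. Of the 44, 37 lay below the mean of the other strains, and the median was -0.19. Ifi44l read 6.67, 6.54 and 7.37 in SEA/GnJ, a level near the median of the other strains (6.88) but far above the lowest (2.75, FVB/NJ), so that its mean difference was 1.59 ± 0.16 (SE; adjusted p = 4.1e-15) with SEA/GnJ ranked 16 of 29. Ifi202b, a DNA-binding protein of the interferon-inducible p200 family, read 8.25, 7.95 and 8.83, against 3.03 (C57BL/6J), 7.35 and 9.35 (SM/J). Both comparisons include strains near background. Among the genes called lower, Ifi27l2a read 8.59, 8.04 and 9.38, against 8.36 (NOD/ShiLtJ), 9.60 and 10.16 (SM/J), a difference of -0.89 ± 0.18 (SE), and the oligoadenylate synthetase-like Oasl2 averaged 5.41 ± 0.68 (SD, n = 3), a difference of -0.75 ± 0.22 (SE). Mouse 3 was the highest of the SEA/GnJ mice for both. The list had 8 genes called lower without mouse 3, 1 without mouse 1 and 0 without mouse 2, and the higher calls numbered 1 to 2. Ifi202b was not called without mouse 3, Ifi27l2a without mouse 2, nor Oasl2 without mouse 1 or mouse 2. In the class I list the liver-secreted H2-Q10 had the sole call, at 11.60, 11.59 and 11.69 against 11.58 (BALB/cJ), 11.98 and 12.21 (SJL/J), a difference of -0.32 ± 0.06 (SE).

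Of the lipid synthesis genes 1 was called lower and 0 higher, against 2.68% and 3.39% of all genes. For fatty acid synthesis 17 of 18 genes lay below the mean of the other strains, with a median of -0.33, and 0 were called. The lipid droplet hydrolase Pnpla3 read 3.68, 3.80 and 3.54, against 3.44 (BALB/cJ), 4.73 and 7.76 (FVB/NJ), a difference of -1.51 ± 0.50 (SE; adjusted p = 0.063). Thrsp, a lipogenic nuclear protein, read 8.93, 9.08 and 9.08, against 7.62 (C58/J), 10.27 and 11.52 (FVB/NJ), a difference of -1.07 ± 0.37 (SE; adjusted p = 0.079). Both were called lower when the strains with names starting with C57 or C58 were left out. For cholesterol biosynthesis 17 of 19 lay below the mean of the other strains, and the median was -0.22. Insig1, the sterol sensor's retention protein, was the sole gene called. It read 7.43, 7.47 and 7.93, against 7.34 (C58/J), 8.45 and 9.49 (C57BL/6J), a difference of -0.84 ± 0.24 (SE; adjusted p = 0.022), and was not called without mouse 1 or without mouse 2.

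In bile acid metabolism Cyp7a1, the rate-limiting enzyme of the classical synthesis pathway, was higher. It read 10.64, 10.77 and 9.99, against 7.61 (C58/J), 9.71 and 10.78 (PL/J), a rise of 0.95 ± 0.28 (SE; adjusted p = 0.027), which was not called without mouse 1 or without mouse 2. Amacr, the racemase of side-chain oxidation, rose by 0.34 ± 0.07 (SE). The bile salt export pump Abcb11 read 10.24, 10.34 and 10.49, against 10.30 (KK/HlJ), 10.69 and 11.07 (SWR/J), a difference of -0.32 ± 0.09 (SE), second lowest of the 29 strains and not called without mouse 1 or without mouse 2. The organic anion transporter Slco1a1 had a mean difference of -1.68 but read 4.38, 3.11 and 3.75, close to the median strain (4.03), the highest being SWR/J at 10.49, and was not called without mouse 2 or mouse 3. The nuclear receptor Nr1h3 (LXR alpha) of the sterol efflux list had its lowest mean in SEA/GnJ, at 7.55, 7.31 and 7.46 against 7.53 (BALB/cJ), 7.76 and 8.11 (C58/J), a difference of -0.36 ± 0.07 (SE; adjusted p = 0.00021). Apoe, read by a mouse probe set, did not pass the test (12.92 ± 0.10, SD, n = 3, in SEA/GnJ, 12.81 to 13.09 in the other strain means, difference -0.04 ± 0.04, SE).

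Of 59 xenobiotic metabolism genes 4 were called higher and 5 lower (median -0.09), against 3.39% and 2.68% of all genes. The aldehyde oxidase Aox1, named after its value was seen, read 10.86, 10.85 and 10.91. The lowest, median and highest other strain were at 9.39, 10.25 and 10.90, a rise of 0.65 ± 0.12 (SE; adjusted p = 3.1e-05). The cytochrome Cyp2c39 rose by 1.31 in the mean while SEA/GnJ (9.96, 9.95 and 9.83) ranked 14 of 29, and the lowest strain, C57BLKS/J, was at 4.43. Without the strains whose names start with C57 or C58 it was not called. The glutathione and NRF2 target list had 3 of 28 called higher, namely the glutathione transferase Gstm6 (0.77), the quinone reductase Nqo1 (0.72) and the glutathione peroxidase Gpx2 (0.67), and 1 lower, Gstk1 (-0.26, not called without mouse 1 or mouse 3). Gstm6 averaged 8.89 ± 0.10 (SD, n = 3), with all 3 mice above the highest other strain mean of 8.79 (KK/HlJ), and held its call with each mouse left out, while Nqo1 and Gpx2 held it with none left out. In the unfolded protein and amino acid response list 17 of 19 genes lay above the mean of the other strains (median 0.24). Asparagine synthetase, Asns, was called, with a rise of 0.85 ± 0.17 (SE; adjusted p = 0.00036). Its values were 5.22, 5.34 and 5.45, against 3.73 (NOD/ShiLtJ), 4.44 and 5.62 (129X1/SvJ).

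Other liver lists held few calls, where 3.39% of all genes were called higher and 2.68% lower. Among PPAR alpha targets the acyl-CoA dehydrogenase Acadvl had a difference of -0.19, in the lipid droplet list the triglyceride synthesis enzyme Dgat2 of -0.26 and Cideb of -0.23, and in the sterol efflux list the phospholipid transfer protein Pltp of -0.42. Of 23 sex-biased liver genes Cyp2d9 (0.99) and Slco1a1 were called, and of 12 hepatocyte markers Serpina1a (-0.22). Bub1 and Dtwd1 (0.25) were the calls among 14 genes that the study singled out in these same livers, which is not an independent choice.

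The plasma protein lists were near the rest of the genes, of which 3.39% were called higher and 2.68% lower. In the acute phase list serum amyloid P (Apcs) was the sole call of 24, at 12.31, 12.14 and 12.02 against 11.06 (C57BL/6J), 11.76 and 12.23 (C3H/HeJ), a rise of 0.43 ± 0.09 (SE), which was not called without mouse 1. In the complement and coagulation list C4b read 11.49, 11.67 and 11.67, against 11.43 (AKR/J), 12.03 and 12.18 (LG/J), a difference of -0.36 ± 0.05 (SE; adjusted p = 1.8e-08). The lectin pathway protease Masp1 was also lower (-0.30, not called without mouse 1 or mouse 3), and the fifth component, Hc, was higher (0.17, not called with any mouse left out). Urea cycle, gluconeogenesis, heat shock, metallothionein, immediate early, adipocyte, muscle and pancreatic acinar lists had 0 genes called in either direction.

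The 6 genes with the largest range over the 3 mice were Ngp, Dbp, Per3, Jchain, Usp2 and G6pc. Dbp, a transcription factor that oscillates with the day, read 7.71, 8.24 and 5.20, against 4.54 (AKR/J), 7.25 and 8.46 (DBA/2J) in the other strains. The clock gene Per3 read 6.32, 7.12 and 4.47 and the clock-controlled protease Usp2 read 6.43, 7.37 and 4.87. Arntl (BMAL1), which runs opposite to these, read 5.34, 4.58 and 6.19. Mouse 3 was thus the lowest of the 3 for Dbp, Per3 and Usp2 and the highest for Arntl. Mouse 1 lay near the median strain for Per3 (5.97) and Arntl (5.35). Per1 differed, at 4.64, 5.84 and 5.64, with mouse 1 lowest. The immunoglobulin joining chain Jchain read 5.54, 5.90 and 3.36, and the glucose-6-phosphatase G6pc read 8.31, 9.11 and 10.60. G6pc was called lower when mouse 3 was left out. Of the 15 clock genes Cry1 alone was called, against 2.68% of all genes called lower. The difference of Cry1 from the other strains was -0.42 ± 0.13 (SE), and it was not called with any mouse left out. Mouse 3 was also the mouse with the highest cell cycle genes, and the part of the time of collection in that was not tested.

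Against C57BL/6J alone, the strain of the fathers, 702 genes were called higher (4.11%) and 570 lower (3.33%). The comparison uses the same SEA/GnJ mice as that with the 28 strains and rests on 2 C57BL/6J mice. With the first of them left out 282 genes were called and with the other left out 542, and without SEA/GnJ mouse 1 there were 666. The largest measured difference was that of H2-Ea, 8.00 ± 0.56 (SE), at 10.95, 10.74 and 10.70 in SEA/GnJ and 2.88 and 2.72 in C57BL/6J. Ifi202b rose by 5.32 (8.25, 7.95 and 8.83, against 3.05 and 3.01). The aspartic protease Ctse rose by 5.17 (7.98, 8.58 and 8.76, against 3.22 and 3.32). Cyp2c39 rose by 4.61 and Ifi44l by 4.01. In each of these genes, picked for their large differences, the C57BL/6J mice lay far below all 3 SEA/GnJ mice. For H2-Ea, Ifi202b, Ctse and Ifi44l they lay under the median level of all probe sets, 3.46, near background, so that these differences are lower bounds and their order was not resolved.

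The largest falls against C57BL/6J were in the prostatic acid phosphatase gene Acpp (-3.09, at 3.60, 4.01 and 3.91 in SEA/GnJ and a mean of 6.93 in C57BL/6J), Pnpla3 (-2.69), the enoyl-CoA isomerase Eci3 (-2.39), the squalene epoxidase Sqle (-2.37) and Thrsp (-2.27). Pnpla3 and Thrsp were not called with a C57BL/6J mouse left out, whichever it was, nor Pnpla3 without SEA/GnJ mouse 1 or mouse 3. Eci3 was not called without the first C57BL/6J mouse, nor Sqle without the second. Of the 570 genes called lower, 11 belonged to the 18 of the fatty acid synthesis list, which had a median of -0.90 and 0 genes higher, and 6 to the 19 of the cholesterol biosynthesis list, which had a median of -0.91. The median of all genes was 0.01. The list counts with a C57BL/6J mouse left out were not made. Fatty acid synthase, Fasn, read 8.90, 9.33 and 9.94 in SEA/GnJ and 11.11 and 11.29 in C57BL/6J, a difference of -1.81. C57BL/6J lay high for Fasn, at a mean of 11.20, the highest other strain being NOD/ShiLtJ at 11.23. It was the highest other classical strain for Acpp and Sqle, but not for Pnpla3, Eci3 or Thrsp. Against the mean of the other classical strains the fatty acid list had a median of -0.33 and 0 genes called. The cholesterol list had a median of -0.22 and 1 gene called lower. Bmp5 was lower than in C57BL/6J as well, at 5.73, 5.54 and 5.97 against 6.93 and 6.96, a difference of -1.19 (adjusted p = 9.4e-07). C57BL/6J had the highest Bmp5 mean of the other strains. Against BALB/cJ the Bmp5 difference was -0.53 and was not called (adjusted p = 0.14 by limma).

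Among the 28 other classical strains, BALB/cJ was the most like SEA/GnJ. The recombinant strains were not compared in this way. Over the 10474 genes its centred strain means correlated with those of SEA/GnJ at r = 0.614, followed by C3H/HeJ (0.446) and AKR/J (0.407). The lowest values were those of FVB/NJ (-0.495), NOD/ShiLtJ (-0.425) and C57BL/6J (-0.359). The mouse of another classical strain most like each of the 3 SEA/GnJ mice was in every case a BALB/cJ mouse.

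Against BALB/cJ alone 67 genes were called higher (0.392%) and 85 lower (0.497%). The largest measured rises were in the calmodulin-like Calml4 (2.02, at 6.79, 7.20 and 6.04 in SEA/GnJ and 4.57, 4.93 and 4.46 in BALB/cJ), the actin-regulating Cap2 (2.00, at 4.81, 4.26 and 5.07 against 2.78, 2.75 and 2.58), the glucuronosyltransferase Ugt2b37 (1.95), Id4 (1.83, at 5.88, 5.93 and 6.03 against 3.83, 3.97 and 4.56) and the serpin Serpinb1a (1.79). The largest falls were in the thyroid hormone-binding crystallin Crym (-2.60, at 4.18, 4.36 and 4.10 against 6.86, 6.98 and 6.60), the cytochrome oxidase subunit Cox6b2 (-1.63), Tmem45a (-1.57), the histone H4c9 (-1.38) and Ifi27l2b (-1.37). For Calml4, Cap2, Id4 and Crym the mice of both strains did not overlap, a description only. These genes were picked for their large differences, and the share of all genes without overlap was not counted. BALB/cJ lay under the median level of all probe sets, 3.46, for Cap2 and Ugt2b37, so their differences are lower bounds with no order against the other rises, as is that of Cox6b2, for which SEA/GnJ lay under it. The call of Tmem45a was lost with any mouse of either strain left out. The count of 152 genes was 89 without the first BALB/cJ mouse and 99 without the second.

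The pattern of the gene lists differed between these comparisons, which share the SEA/GnJ mice. Against BALB/cJ, 16 of 18 fatty acid synthesis genes, 17 of 19 cholesterol biosynthesis genes and 17 of 18 endothelial genes lay above, with medians of 0.26, 0.17 and 0.34, and none was called. The 12 cholangiocyte genes, all above the mean of the 28 strains, had 3 above BALB/cJ and a median of -0.18. The 25 cell cycle genes had 23 above BALB/cJ and a median of 0.28.

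**Figure D5:**
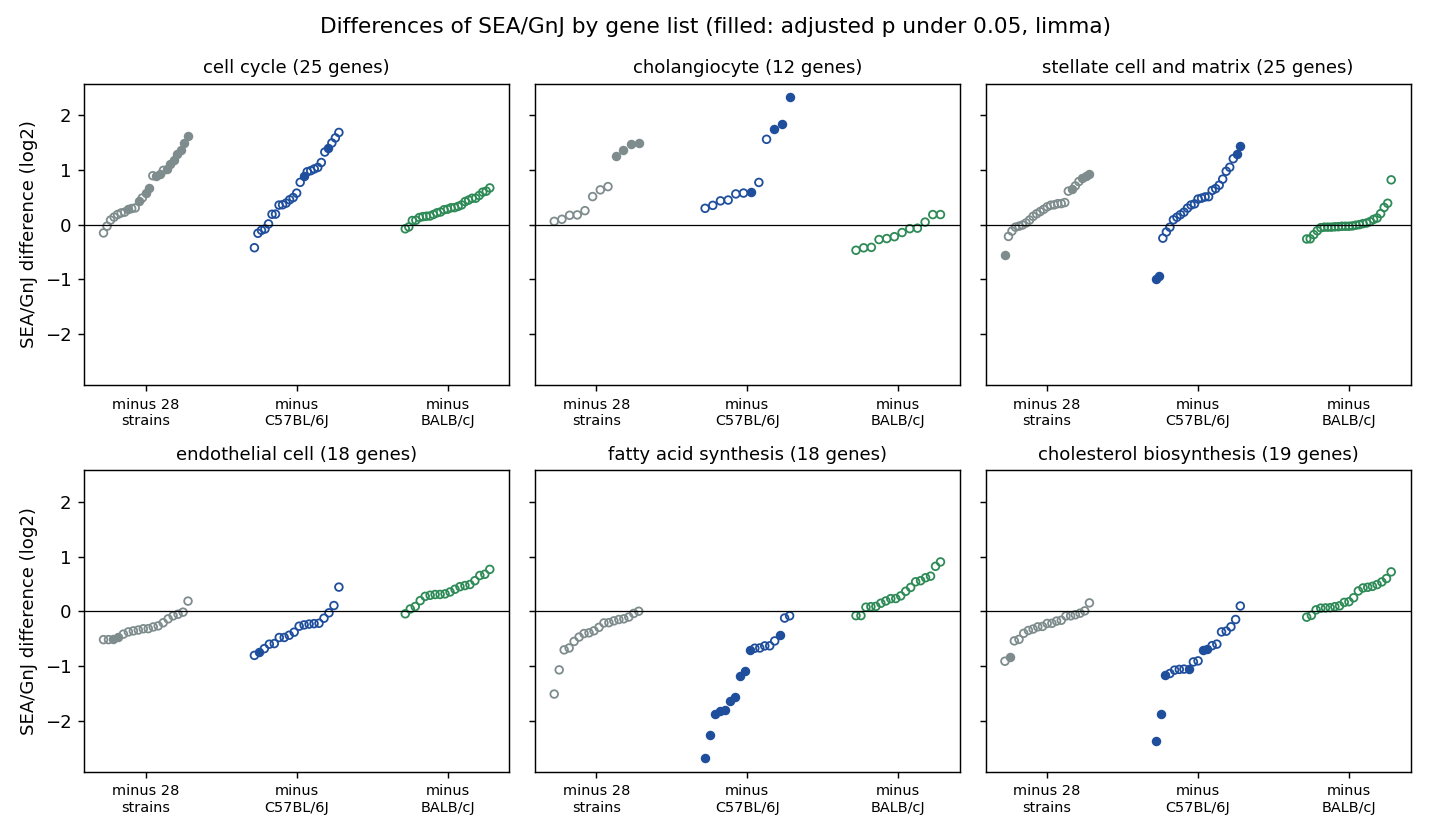
Difference of SEA/GnJ (vertical axis, log2) for each gene of 6 lists, from the mean of the 28 other classical strains (grey), from C57BL/6J (blue) and from BALB/cJ (green), ordered by size within each comparison, with filled points for genes called by limma. Fatty acid and cholesterol synthesis genes lie mostly below C57BL/6J and mostly above BALB/cJ, and no gene of the 6 lists was called against BALB/cJ.

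The genes that differed from BALB/cJ took different shares of the chromosomes, and whether these shares differ beyond chance was not tested. By RefSeq chromosome they made up 1.98% of the measured genes on chromosome 13 (13 genes), 1.85% on chromosome 4 (19) and 1.54% on chromosome 1 (15), against 0.145% on chromosome 15, 0.168% on chromosome 14 and 0.234% on chromosome 18, with 1 gene each. Some lay close together. With the genes of each chromosome cut into blocks of 50 in RefSeq order, 245 of 350 blocks held none and 3 held 4. One of the 3, on chromosome 13, held Sirt5, Cap2, Tpmt and Id4. Another, on chromosome 3, held Pfn2, Tm4sf4, Sucnr1 and P2ry1, and the last, on chromosome 11, held Flcn, Alkbh5, Flii and Shmt1. These blocks were looked at after the calls were known, and their unevenness was not tested.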

How the data were processed

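Each of 220 female F1 mice gave left liver lobe RNA for 1 Affymetrix mouse array. The authors normalised the arrays by RMA and deposited log2 values, with GCOS and RMA named, without versions, in the submitters' processing notes. The labels name the HT_MG-430A array, while the probe set names carry the PM suffix. Arrays hold no read depth, so precision was limited by their number, here 3 for SEA/GnJ.

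After 104 array controls were left out, 45037 probe sets were tested. The annotation table gave 28898 of them 1 gene symbol, 551 several and 15588 none. A gene was represented by the brightest of its probe sets (mean of all mice), which gave 17097 genes. All tests used limma (version 3.58.1, in R 4.3.3) with Benjamini-Hochberg adjustment over all 45037 probe sets and a threshold of 0.05. In the first, 1 mean was fitted for each of the 96 strains over all mice (124 residual degrees of freedom), and SEA/GnJ was compared with the unweighted mean of the 28 other classical strain means, with C57BL/6J and with BALB/cJ. In the second, 29 strain means were the units (27 residual degrees of freedom). The scripts were tested on simulated data.

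Named genes were the 12 largest rises and falls with all 3 SEA/GnJ mice outside the other strain means, up to 4 called members of each gene list, the loci known for SEA/GnJ with H2-Ea and Apoe, the 6 most variable genes among the SEA/GnJ mice, and the 5 largest rises and falls against C57BL/6J and against BALB/cJ. Aox1 and the other list members beyond these were named after their values were seen. Cyp46a1 and Fmo2 met the rule and are not described. SEA/GnJ and the gene lists were chosen with earlier results of these data known. Alternatives changed the probe set rule, the filter on dim probe sets, the centring of arrays, the prior, the strains compared and the mice included. Promoters and gene order came from RefSeq (GRCm38.p6).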

Additional observations from a re-analysis of the deposited data

How the results depend on the processing

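With a SEA/GnJ mouse left out, the genes called against the 28 other classical strains numbered 230 to 328 higher, in place of 579, and 181 to 286 lower, in place of 459. Under the other alternatives run these counts were 432 to 777 and 360 to 586, each within 1.5 times. Against the spread of strain means the counts of 0 higher and 0 lower became 0 to 2 and 0 to 1 with a mouse left out, 2 and 4 with means weighted by number of mice, and 3 and 4 with the means of all 95 other strains. Against C57BL/6J the count of 1272 was 282 to 1047 with a mouse of either strain left out, and against BALB/cJ the count of 152 was 89 to 119. With the mean of all probe sets of a gene, Hfe (-0.14) and Pdxdc1 (0.62) turned in direction, since their probe sets differ in sign, and Fam168a (-0.12) was not called. Centring each array on its median kept 273 of 277 gene values on their side of the threshold, and the trended robust prior also kept 273. The comparison without BALB/cJ, C3H/HeJ and AKR/J, and the list counts with a mouse left out, were added after seeing the data. The cause of the other differences was not tested. No paired analysis was possible because replicate numbers were given in accession order and pair no samples.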
